A study of Rattus norvegicus with 12 samples.

Results

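The data describe the TGF-beta ligands and the secreted matrix-associated proteins known as their targets in cultured rat neural stem cells (NSCs), dividing cells able to form neurons and glia. The genes were chosen by name: the ligands Tgfb1, Tgfb2 and Tgfb3, the activin A subunit Inhba, and the matrix-associated genes Tgfbi, Ccn1, Ccn2 and Thbs1. The choice was made with earlier results of these data known. Of these 8 genes, 7 had probe sets carrying their single symbol, current or former, in the platform annotation, 9 probe sets in all, against 14217 genes with such a probe set in the whole series. Thbs1 was not analysed here. On the Affymetrix Rat230_2 array a transcript is read by a probe set, several short probes placed mostly near its 3' end, and its log2 signal is compared between samples only within the same probe set.

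NSCs came from the spinal cord or the brain of Sprague Dawley rats at postnatal day 3 to 5 and were profiled in a differentiated and in a proliferative state, with 3 arrays for each of 4 groups: differentiated spinal cord (SNSCfenhua in the titles), proliferative spinal cord (SNSC), differentiated brain (BNSCfenhua) and proliferative brain (BNSC). No genetic change or drug is named for any group, and the culture conditions, the way of differentiation and its duration are not given in the sources used here. Whether the 3 arrays of each group hold separate cultures or animals is not stated. The p-values therefore reflect the spread among these arrays alone, possibly a technical one, and the number of arrays limits the precision.

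TGF-betas and activins are secreted dimers that bind pairs of serine/threonine kinase receptors, which phosphorylate Smad2 and Smad3. These pair with Smad4 and enter the nucleus. TGF-beta is secreted in a latent form, held in the matrix by latent TGF-beta binding proteins and released by integrins or by thrombospondin 1, the product of Thbs1. Matricellular proteins are secreted into the matrix and act on cell surface receptors more than as structural parts. Ccn1 and Ccn2 are also known targets of YAP and TAZ, co-activators that act through TEAD factors and respond to cell shape and tension. In the nervous system TGF-beta 2 is made by glia and neurons, and TGF-beta and CCN2 are known for scar formation after injury.

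Promoter sequences of 3 members are shown because their signals moved together on 1 spinal cord array, described below. They are RefSeq sequences of the GRCr8 build, from 250 bases before to 50 after the listed transcription start, 5′ to 3′ on the gene's strand, with the TEAD core GGAATG on either strand in capitals. All 7 measured genes matched an entry.
Ccn2, chr1:22624565-22624864, minus strand: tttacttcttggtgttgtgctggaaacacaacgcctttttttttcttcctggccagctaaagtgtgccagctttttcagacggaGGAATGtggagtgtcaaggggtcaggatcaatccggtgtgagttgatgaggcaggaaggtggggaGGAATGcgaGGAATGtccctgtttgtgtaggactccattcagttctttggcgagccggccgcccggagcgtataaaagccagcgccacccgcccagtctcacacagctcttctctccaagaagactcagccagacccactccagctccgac
Ccn1, chr2:237225640-237225939, minus strand: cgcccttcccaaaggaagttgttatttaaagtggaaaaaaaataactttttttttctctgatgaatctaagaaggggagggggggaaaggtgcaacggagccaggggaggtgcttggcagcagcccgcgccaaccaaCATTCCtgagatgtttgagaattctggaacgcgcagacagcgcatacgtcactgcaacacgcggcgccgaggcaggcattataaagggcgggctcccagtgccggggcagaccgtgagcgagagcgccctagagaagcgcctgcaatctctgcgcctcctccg
Inhba, chr17:53804459-53804758, minus strand: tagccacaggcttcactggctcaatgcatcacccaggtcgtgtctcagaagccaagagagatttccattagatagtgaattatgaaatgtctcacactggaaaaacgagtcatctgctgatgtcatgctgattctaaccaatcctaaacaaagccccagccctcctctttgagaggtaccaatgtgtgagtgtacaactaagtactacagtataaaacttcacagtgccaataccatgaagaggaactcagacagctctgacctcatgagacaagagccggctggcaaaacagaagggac

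The Ccn2 window held GGAATG 3 times and the Ccn1 window once, as its complement CATTCC, while the windows of the other 5 measured members did not hold it. Among 33469 promoters of the same length, 14.2% held this core at least once and 0.0956% held it 3 or more times. The limit of 3 equals the count in Ccn2, so the second share describes that window and tests no link. The short Smad-binding letters CAGAC, searched on both strands, occurred 2 times in Ccn2, 2 times in Ccn1 and 1 time in Inhba, and in 50.1% of all promoters. AP-1 (TGANTCA), CRE (TGACGTCA) and the CArG box were found in none of the 7 windows and in 7.33%, 1.83% and 1.64% of all promoters. A match describes letters only, and a missing match says only that these letters are not in this window.

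Array medians ran from 6.88 to 7.23 on the log2 scale, and arrays correlated at r = 0.94 to 0.975 within groups and 0.735 to 0.88 between groups (across probe sets, which do not count as independent replicates). A group was called dim for a probe set where all 3 of its arrays lay under their own 40th percentile, which was 5.91 to 6.41. MAS5 signals of dim probe sets have no reliable order, so a fold against a dim group is given as "at least", taken from the mean of those percentiles. The NSC label was set against 7 measured progenitor markers, of which only Hes5 was dim in any group, namely in all but the differentiated brain cultures. Their log2 summed signal was 15.29 to 15.36 in differentiated and 15.37 to 15.43 in proliferative spinal cord cultures, and 15.92 to 16.15 in differentiated and 15.63 to 15.88 in proliferative brain cultures. Between proliferative cultures 4 of 7 were lower in spinal cord and 0 higher by limma, with 1 higher at an unadjusted p under 0.05. Between differentiated cultures 6 were lower and 0 higher. Of all tested genes 22.8% and 22.4% were lower in these comparisons, and 21.2% and 22.3% higher. Nes, the progenitor filament nestin, was 7.78, 7.95 and 8.13 in differentiated spinal cord cultures, against 9.68, 9.34 and 9.15 in proliferative ones. The list as a whole did not move 1 way with differentiation. In spinal cord 1 of 7 rose and 4 fell, against 20.9% and 22.6% of all tested genes. In brain 4 rose and 1 fell, against 24.1% and 28.5%.

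Markers of fibroblasts, meninges and mural cells differed far more between the tissues. The log2 summed signal of 10 measured markers was 16.37 to 16.58 in differentiated and 14.58 to 15.4 in proliferative spinal cord cultures, and 10.38 to 10.76 in differentiated and 9.82 to 10.19 in proliferative brain cultures. Dcn, the collagen-binding proteoglycan decorin, was 14.37, 14.23 and 14.11 in differentiated spinal cord cultures, against 13.28, 14.23 and 14.04 in proliferative ones. Pdgfrb, the mural and fibroblast receptor, and Lum were dim in both brain groups. The list shares Cspg4 with the oligodendrocyte lineage list used below. Between proliferative spinal cord and brain cultures 7 of 9 tested markers of this list were higher and 0 lower by limma. Of all tested genes 21.2% were higher and 22.8% lower. At an unadjusted p under 0.05, 0 markers were lower as well. Between the differentiated cultures 7 were higher and 1 lower, against 22.3% and 22.4% of all tested genes. The part of these markers in the results below was not tested. In bulk RNA fewer cells of a type and less RNA per cell cannot be told apart.

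One array stood apart in the genes described here. On proliferative spinal cord replicate 1, 4 of 9 member probe sets lay at least 1 log2 unit below both other arrays of the group, as did 3.24% of all 20834 tested probe sets. These were Ccn1, Ccn2 and both probe sets of Inhba. For Ccn2 the distance to the nearer of the other arrays was -2.03, and 0.662% of tested probe sets lay as low on that array. Ccn1 lay -1.84 away (0.835% as low), and Inhba -1.29 and -1.16 (1.87% and 2.36% as low). On the same array 16 of 75 tested genes of the related systems lay that far below, among them Tagln, the smooth muscle protein transgelin, at 3.56 against 8.23 and 8.0, and Postn, the matrix protein periostin, at 9.28 against 12.51 and 12.49. The fibroblast and mural sum of this array was 14.58, against 15.4 and 15.17, and its microglial sum was 11.98, against 11.19 and 11.4. Replicate 2 of the group lay on the other side for the same 4 probe sets, 0.75 to 0.87 above the nearer array. Results that rest on replicate 1 are given below with and without it.

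**Figure D1:**
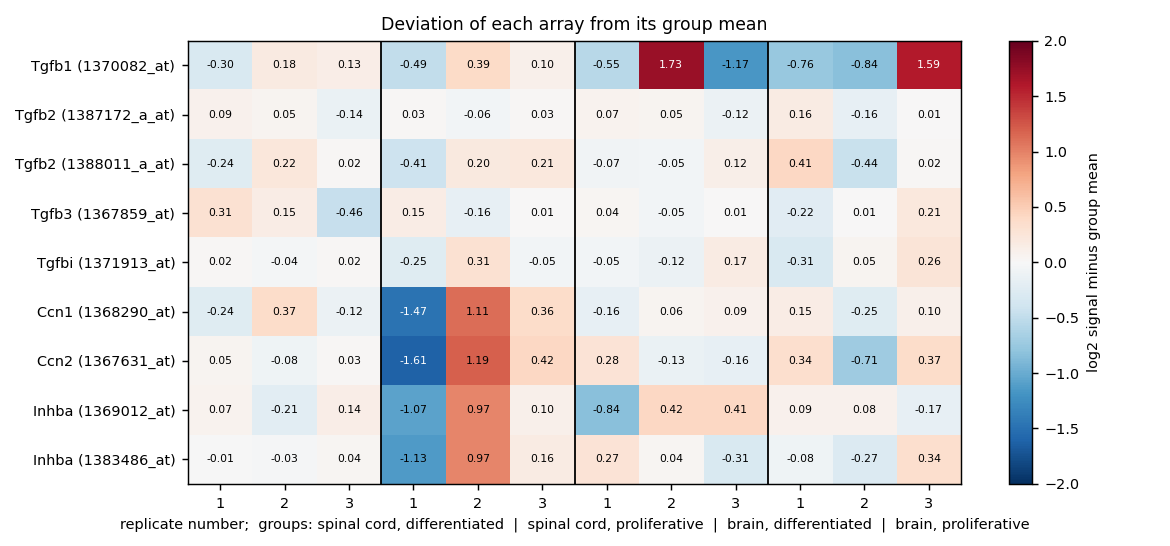
Deviation of each array's log2 signal from its group mean (number and colour) for 9 probe sets in rows and 12 arrays in columns, ordered by group and replicate number. Proliferative spinal cord replicate 1 is low for Ccn1, Ccn2 and both Inhba probe sets, with deviations of -1.47, -1.61, -1.07 and -1.13, and replicate 2 is high for the same probe sets. Tgfb1 is scattered on brain arrays, where it was dim.

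All contrasts came from a single limma model fitted to the 12 arrays, and adjusted p-values are Benjamini-Hochberg over the 20834 probe sets tested in a contrast, with calls at 0.05. All 9 member probe sets were tested. In brain differentiation 2 of 9 were higher and 1 lower, against 23.7% and 23.1% of all tested probe sets. In spinal cord differentiation 4 were higher and 2 lower, against 18.3% and 22%. Spinal cord exceeded brain in 7 of 9 among proliferative cultures, against 19.4% of all probe sets higher and 18.5% lower. It did so in 7 of 9 among differentiated cultures too, against 18.5% higher and 22.9% lower. No member was lower in spinal cord in either state by limma, nor at an unadjusted p under 0.05. Tgfb2 and Inhba have 2 probe sets each. By gene, 5 of 7 were higher in spinal cord in each state, against 21.2% of all tested genes among proliferative and 22.3% among differentiated cultures. Tgfb1 and Tgfbi, dim in both brain groups, owed their place among the tested probe sets to the spinal cord arrays, which made a difference between the tissues likely beforehand. All members were chosen with earlier results of these data known, so their counts beside these shares are a description and not independent support. The difference of the differentiation responses, spinal cord minus brain, was called for 3 of 9, 2 higher and 1 lower, against 18.8% and 21.7%. Without proliferative spinal cord replicate 1 this last count was 5, of which 2 were higher and 3 lower.

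**Figure D2:**
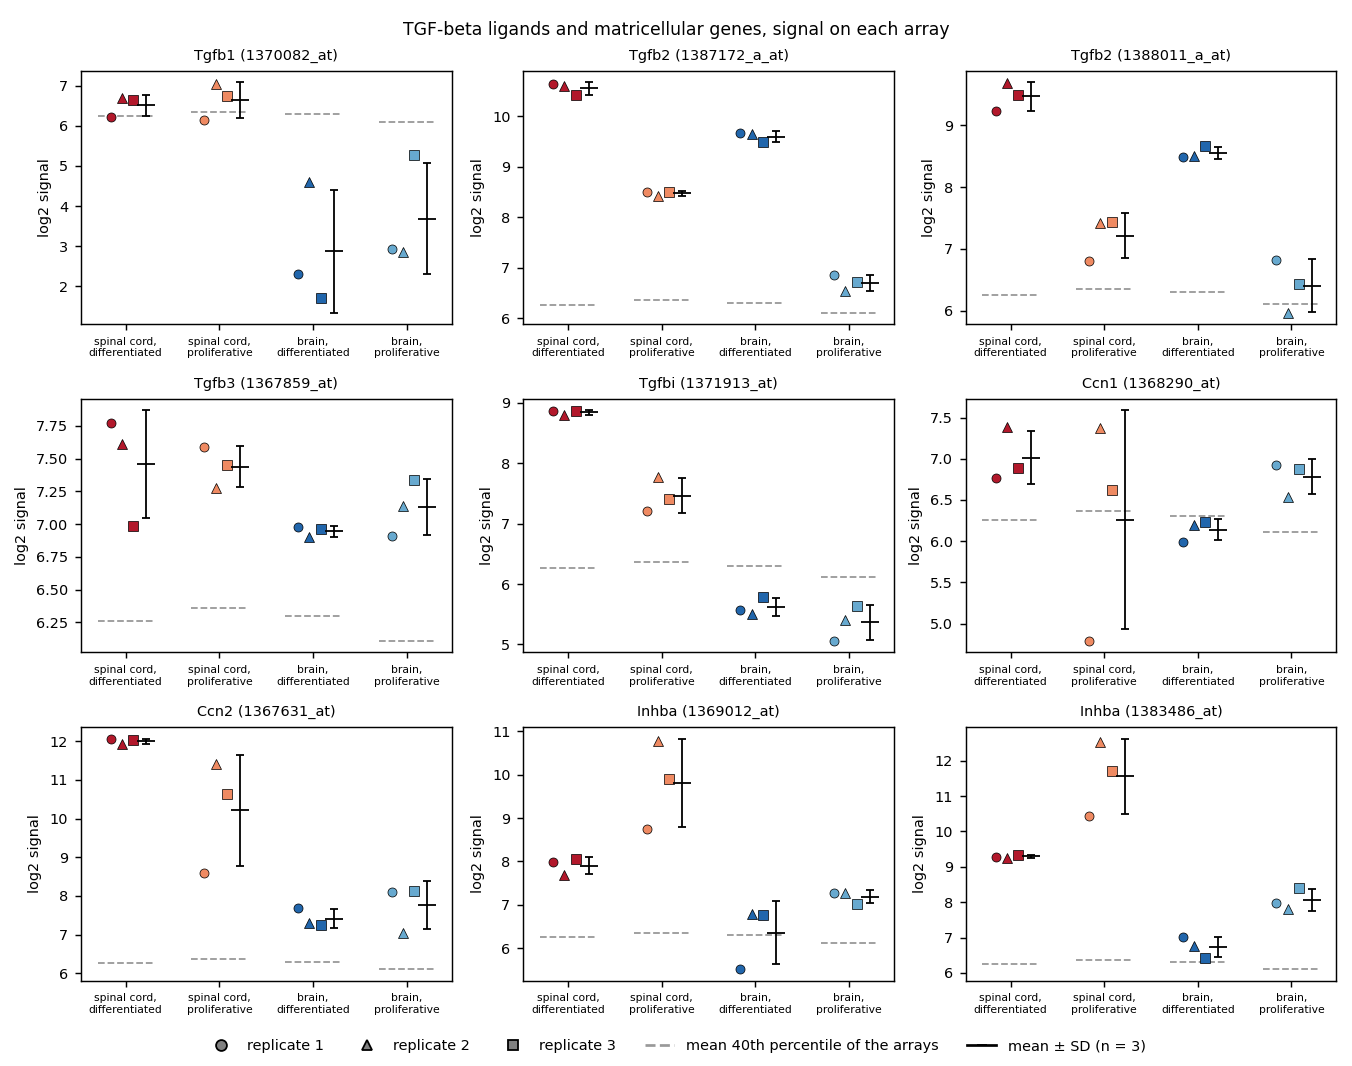
Log2 signal on each of 12 arrays for the 9 probe sets of 7 genes, with groups along the x axis, a marker shape for each replicate number, the group mean ± SD (n = 3) in black and the mean 40th percentile of the group's arrays as a dashed line. Tgfb2 is higher in differentiated than in proliferative cultures of both tissues, Ccn2 and Tgfbi are highest in differentiated spinal cord cultures, and Inhba is highest in proliferative spinal cord cultures.

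Tgfb2, the ligand TGF-beta 2, was higher in differentiated than in proliferative cultures of both tissues. In differentiated spinal cord cultures its probe set 1387172 read 10.64, 10.60 and 10.41, against 8.5, 8.41 and 8.5 in proliferative ones. In differentiated brain cultures it read 9.66, 9.65 and 9.48, against 6.86, 6.54 and 6.71 in proliferative ones. The 4 groups did not overlap, and the order was differentiated spinal cord, differentiated brain, proliferative spinal cord and proliferative brain. Tgfb2 rose 7.42-fold in brain (log2 2.89 ± 0.13 SE, limma adjusted p = 1.7e-09) and 4.23-fold in spinal cord (log2 2.08 ± 0.13, adjusted p = 4.47e-08). In the same comparisons the log2 summed signal of 7 astrocyte markers was 15.45 to 15.73 in differentiated and 14.31 to 15.14 in proliferative spinal cord cultures, and 16.44 to 16.55 in differentiated and 14.68 to 15.02 in proliferative brain cultures. That of 5 oligodendrocyte lineage markers was 14.51 to 14.72 in differentiated and 14.57 to 14.63 in proliferative spinal cord cultures, and 14.56 to 14.93 in differentiated and 9.83 to 11.45 in proliferative brain cultures. Neuron markers summed to 10.64 to 11.02 in differentiated and 12.79 to 12.98 in proliferative spinal cord cultures, and to 12.47 to 12.93 in differentiated and 12.25 to 12.96 in proliferative brain cultures. The part of these cell types in the Tgfb2 signal was not tested. The response in spinal cord was smaller by the Tgfb2 probe set 1387172 (difference of log2 responses -0.81 ± 0.18, adjusted p = 0.00249).

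The other Tgfb2 probe set, 1388011, did not show that difference between the responses. It read 9.23, 9.69 and 9.49 in differentiated spinal cord cultures, against 6.80, 7.42 and 7.43 in proliferative ones, a rise of 4.76-fold (adjusted p = 5.23e-06). In brain it read 8.49, 8.5 and 8.67 in differentiated cultures, against 6.82, 5.97 and 6.43 in proliferative ones, a rise of 4.42-fold (adjusted p = 6.61e-06). Its difference of responses was 0.11 ± 0.33 (adjusted p = 0.822). Both are of the type that can read more than 1 transcript of the gene, and 1 array of proliferative brain cultures lay under its 40th percentile for this probe set.

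Between the tissues Tgfb2 was higher in spinal cord in each state. Among proliferative cultures the 2 probe sets gave 3.39-fold (adjusted p = 1.92e-07) and 1.75-fold (adjusted p = 0.0144), and among differentiated cultures 1.94-fold and 1.89-fold (adjusted p = 3.51e-05 and 0.00602). For 1388011 the proliferative groups overlapped, since spinal cord replicate 1 at 6.80 lay below the highest brain array at 6.82. That call was lost with quantile normalization (log2 0.59, adjusted p = 0.0774) and without brain proliferative replicate 2 (log2 0.59, adjusted p = 0.0634), spinal cord proliferative replicate 2 (adjusted p = 0.0564) or replicate 3 (adjusted p = 0.0584).

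Tgfb1, the ligand TGF-beta 1 that macrophages, platelets and many other cells make, was dim in brain. It read 6.22, 6.69 and 6.65 in differentiated and 6.16, 7.04 and 6.74 in proliferative spinal cord cultures. In brain cultures it read 2.31, 4.59 and 1.69 in the differentiated and 2.93, 2.85 and 5.28 in the proliferative state, all under the 40th percentiles. Spinal cord was at least 1.16-fold higher among differentiated cultures (adjusted p = 0.00285) and at least 1.45-fold higher among proliferative ones (adjusted p = 0.0121). With values raised to the 40th percentile the first of these was not called (log2 0.22, adjusted p = 0.375), and the second was not called once spinal cord proliferative replicate 2 was left out (adjusted p = 0.0516). Within spinal cord the states overlapped (log2 change -0.13 ± 0.83, adjusted p = 0.92). The microglial sum of 8 markers was 10.5 to 10.63 in differentiated and 11.19 to 11.98 in proliferative spinal cord cultures, and 9.53 to 9.68 in differentiated and 8.61 to 9.07 in proliferative brain cultures. Its part in the Tgfb1 signal was not tested.

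Tgfb3, the third TGF-beta ligand, was called in none of the comparisons by limma, nor at an unadjusted p under 0.05 other than between differentiated cultures. It read 7.77, 7.61 and 6.99 in differentiated and 7.59, 7.28 and 7.45 in proliferative spinal cord cultures. In brain it read 6.98, 6.90 and 6.96 in differentiated and 6.91, 7.14 and 7.34 in proliferative cultures. The changes with differentiation were 0.02 ± 0.22 in spinal cord and -0.18 ± 0.22 in brain on the log2 scale (SE). Among differentiated cultures spinal cord and brain arrays did not overlap, with 6.99 as the lowest spinal cord and 6.98 as the highest brain value, and the log2 difference was 0.51 ± 0.22 (adjusted p = 0.084). Without differentiated spinal cord replicate 3 it was 0.74 (adjusted p = 0.0156).

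Inhba, whose product dimerises into activin A, ran opposite to Tgfb2 with differentiation. Its brighter probe set, 1383486, read 9.28, 9.26 and 9.34 in differentiated spinal cord cultures, against 10.43, 12.54 and 11.72 in proliferative ones. In brain it read 7.01, 6.77 and 6.43 in differentiated cultures, against 7.99, 7.81 and 8.41 in proliferative ones. No groups overlapped, and proliferative spinal cord cultures were highest, followed by differentiated spinal cord, proliferative brain and differentiated brain. Inhba was 4.82-fold lower after differentiation in spinal cord (log2 -2.27 ± 0.37, adjusted p = 0.000293) and 2.52-fold lower in brain (log2 -1.34 ± 0.37, adjusted p = 0.00974).

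Probe set 1369012 of Inhba had the same order of groups at 7.98, 7.69 and 8.05 in differentiated and 8.74, 10.78 and 9.91 in proliferative spinal cord cultures. In brain it read 5.52, 6.78 and 6.77 in differentiated and 7.28, 7.27 and 7.01 in proliferative cultures. It fell 3.73-fold in spinal cord (adjusted p = 0.00276), and its brain change of -0.83 ± 0.42 was not called (adjusted p = 0.126). Compared with brain, Inhba was higher in spinal cord by 11.2-fold and 6.15-fold in proliferative cultures and by 5.89-fold and 2.93-fold in differentiated ones (adjusted p = 8.27e-06, 0.000292, 8.99e-05 and 0.00934).

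Whether Inhba was called as falling by more in spinal cord depended on proliferative spinal cord replicate 1, the array that stood apart. The difference of responses was -0.93 ± 0.53 (adjusted p = 0.18) and -1.07 ± 0.60 (adjusted p = 0.174) with all arrays. Without proliferative spinal cord replicate 1 it was -1.5 ± 0.32 (adjusted p = 0.00193) for 1383486 and -1.6 ± 0.47 (adjusted p = 0.0136) for 1369012. The fall of 1383486 in spinal cord was then -2.83 ± 0.24 on the log2 scale, and the brain change of 1369012 was called (-0.83 ± 0.31, adjusted p = 0.0412), since the estimate of the spread was smaller. Replicate 2 of that group lay 0.82 (1383486) and 0.87 (1369012) above the nearer array. With replicate 2 or any other single array left out, the difference of responses was called for neither probe set.

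Ccn2, connective tissue growth factor, is a matricellular protein induced by TGF-beta and by YAP, and it separated the tissues in both states. It read 12.05, 11.92 and 12.03 in differentiated spinal cord cultures, against 8.60, 11.40 and 10.63 in proliferative ones. In brain cultures it read 7.70, 7.29 and 7.26 in the differentiated state, against 8.10, 7.05 and 8.13 in the proliferative one. The differentiated spinal cord arrays were nearly alike, the proliferative ones spread over more than the distance between their mean and that of brain, and the brain states overlapped. Ccn2 was 23.9-fold higher in spinal cord than in brain among differentiated cultures (log2 4.58 ± 0.51, adjusted p = 7.41e-06) and 5.47-fold among proliferative ones (log2 2.45 ± 0.51, adjusted p = 0.00193).

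With differentiation Ccn2 rose 3.46-fold in spinal cord (log2 1.79 ± 0.51, adjusted p = 0.0126), while in brain its log2 change was -0.34 ± 0.51 (adjusted p = 0.617). The difference of responses was 2.13 ± 0.72 (adjusted p = 0.0297). Without proliferative spinal cord replicate 1 the spinal cord change was 0.99 ± 0.29 (adjusted p = 0.0156), the difference of responses 1.33 ± 0.39 (adjusted p = 0.0138) and the difference between proliferative cultures 3.26 ± 0.29 (adjusted p = 1.42e-06). In folds, the spinal cord rise was 1.98-fold without replicate 1 and 5.22-fold without replicate 2, and the excess over proliferative brain cultures 9.55-fold and 3.62-fold. The difference of responses was not called without the mean-variance trend (adjusted p = 0.0637) or when 1 of 6 other arrays was left out, namely brain proliferative replicate 1 or 3, brain differentiated replicate 2 or 3, or spinal cord differentiated replicate 1 or 3 (log2 1.95 to 2.11, adjusted p = 0.0538 to 0.0669).

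Ccn1, cysteine-rich angiogenic inducer 61, belongs to the same family as Ccn2 and had no called difference by limma. At an unadjusted p under 0.05 it had none either. It read 6.77, 7.38 and 6.89 in differentiated and 4.79, 7.37 and 6.62 in proliferative spinal cord cultures. In brain it read 5.99, 6.20 and 6.23 in differentiated cultures, where it was dim, and 6.93, 6.54 and 6.88 in proliferative ones. Its log2 change was 0.75 ± 0.49 in spinal cord (adjusted p = 0.246) and -0.64 ± 0.49 in brain (adjusted p = 0.305), where the states did not overlap.

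Values of Ccn1 depended on the array that stood apart. Without it the spinal cord change was 0.01 ± 0.31, the difference between proliferative cultures was 0.21 ± 0.31 (adjusted p = 0.622, against -0.52 ± 0.49 with all arrays), and spinal cord exceeded brain among differentiated cultures (0.87 ± 0.27, adjusted p = 0.019, against 0.176 with all arrays). Without proliferative spinal cord replicate 2 in its place, which leaves the low array in, the spinal cord change was 1.31 (adjusted p = 0.0375) and the difference of responses 1.95 (adjusted p = 0.0221).

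Tgfbi, a secreted matrix protein first found as a TGF-beta-induced gene, was measured above the floor in spinal cord cultures only. It read 8.86, 8.80 and 8.86 in differentiated spinal cord cultures, against 7.21, 7.77 and 7.41 in proliferative ones. In brain it read 5.57, 5.5 and 5.79 in differentiated and 5.06, 5.41 and 5.63 in proliferative cultures, dim in both. It rose 2.60-fold with differentiation of spinal cord cultures (log2 1.38 ± 0.23, adjusted p = 0.000374). Spinal cord was at least 5.82-fold higher than brain among differentiated cultures (adjusted p = 1.28e-07) and at least 2.55-fold higher among proliferative ones (adjusted p = 1.27e-05). The difference of responses was 1.12 ± 0.33 (adjusted p = 0.0151), and 1.19 ± 0.24 with the dim values raised to the 40th percentile (adjusted p = 0.00117).

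**Figure D3:**
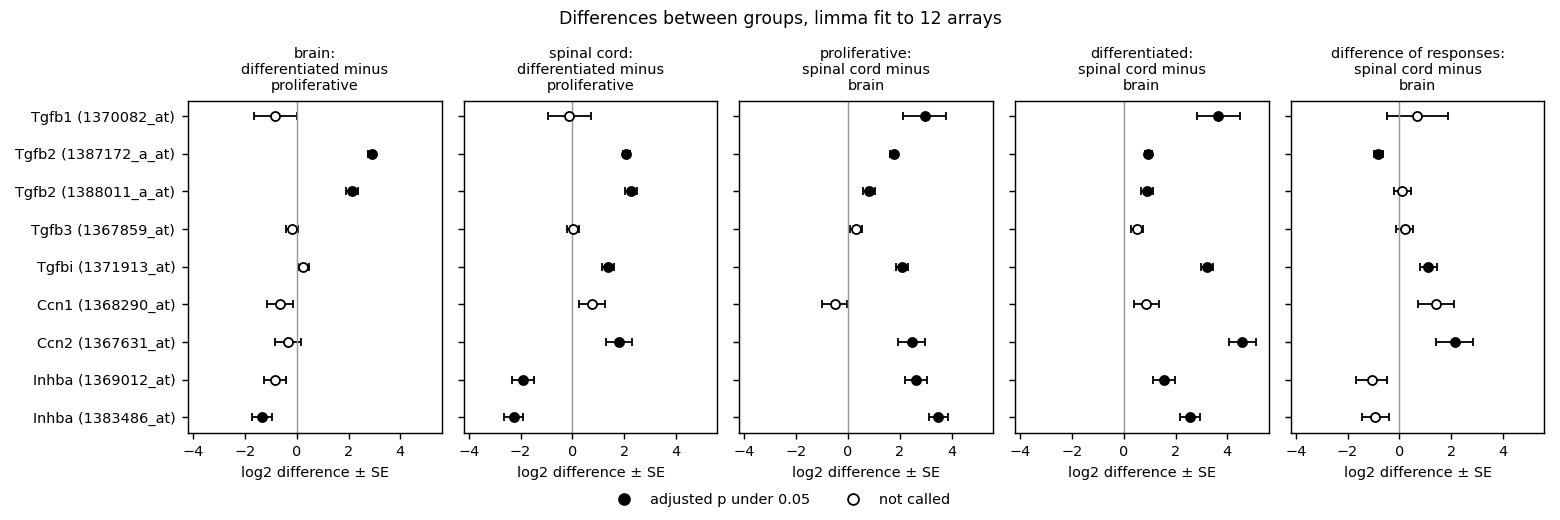
Log2 differences ± SE from the limma fit for the 9 probe sets in 5 contrasts, one panel each, with filled points where the adjusted p was under 0.05. Tgfb2 lies right of 0 and Inhba left of 0 in both differentiation panels, 7 probe sets are filled right of 0 in each panel of spinal cord minus brain, and the last panel has 3 filled points, for Tgfb2, Tgfbi and Ccn2.

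The genes with the most similar pattern over the 12 arrays were found by Pearson correlation among tested genes, as a description. All points share the 4 groups, which set most of each value. Tgfbi was most like the collagen I gene Col1a1 (r = 0.993), and Ifitm2 (r = 0.992). Ccn2 was most like Il1r1, the interleukin 1 receptor (r = 0.984), and Anxa4 (r = 0.983). Tgfb2 was most like Lhfpl6 (r = 0.992) and Add3 (r = 0.987). For Inhba these were Gfpt2 (r = 0.982) and C3h15orf48 (r = 0.981), for Tgfb1 Prkch (r = 0.948) and Ptgs2os (r = 0.938). The closest genes were less alike for Ccn1, with Zfp455l1 (r = 0.89) and Rerg (r = 0.888), and for Tgfb3, with Psmg3 (r = 0.888) and Sacm1l (r = 0.835).

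**Figure D4:**
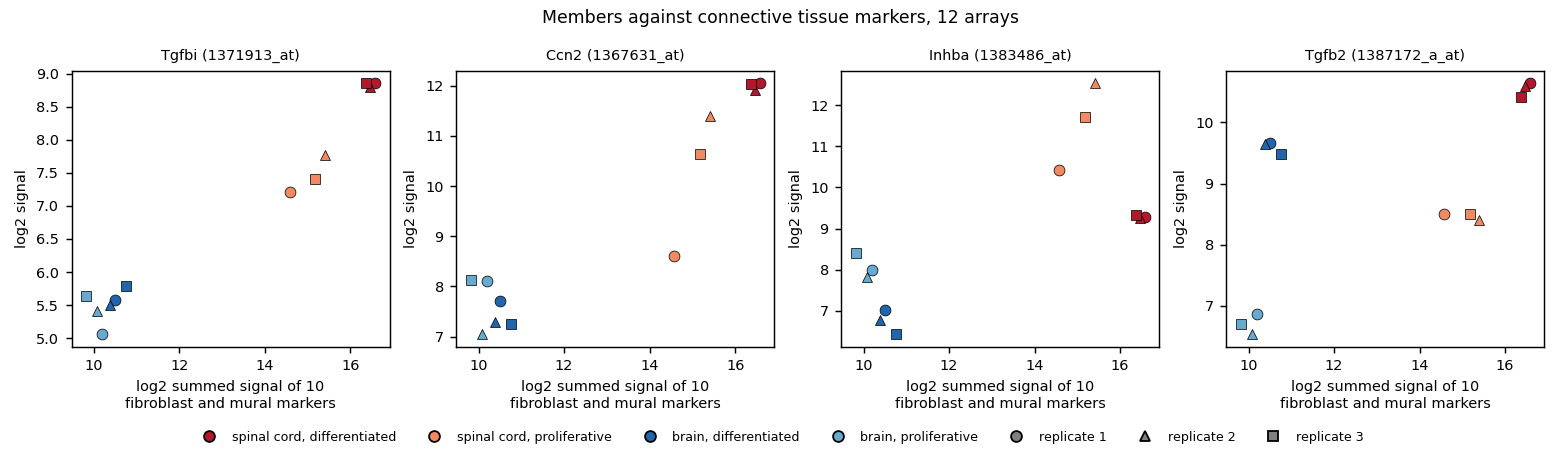
Log2 signal of 4 probe sets (y axis) against the log2 summed signal of 10 fibroblast, meningeal and mural markers (x axis) on 12 arrays, coloured by group with a shape for each replicate number. Tgfbi and Ccn2 are highest where the markers are highest, at 16.37 to 16.58 in differentiated spinal cord cultures, whereas Inhba is highest at 14.58 to 15.4, and Tgfb2 reads 9.48 to 9.66 in differentiated brain cultures, where the markers are near their lowest.

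The other genes of these systems were taken from 7 lists with 90 genes, of which 81 had a probe set and 75 were tested, each gene by its probe set with the highest mean. In brain differentiation 13 rose and 24 fell, against 24.1% and 28.5% of all 11218 tested genes, with a median log2 change of -0.12 beside -0.06 over all genes. In spinal cord differentiation 24 rose and 16 fell, against 20.9% and 22.6%, with a median of 0.31 beside -0.04. Spinal cord exceeded brain in 37 and was lower in 16 among proliferative cultures, against 21.2% and 22.8%, with a median of 0.43 beside -0.04. Among differentiated cultures these counts were 40 and 9, against 22.3% and 22.4%, with a median of 0.61 beside 0. The difference of responses was higher in 24 and lower in 12, against 23.7% and 21.2%. In both comparisons between the tissues most of the fibroblast and mural markers above were higher in spinal cord as well. These were 7 of 9 tested in each, with 1 lower among differentiated cultures. The part of these markers in the counts was not tested. Some genes counted as higher in spinal cord, among them Ltbp2, Lrrc32, Eng and Ccn4, were dim in both brain groups. They owed their place among the tested genes to spinal cord arrays, which made a difference between the tissues likely beforehand. This holds for the counts of single lists below as well. The lists were also chosen with earlier results of these data known, so the shares do not test them.

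**Figure D5:**
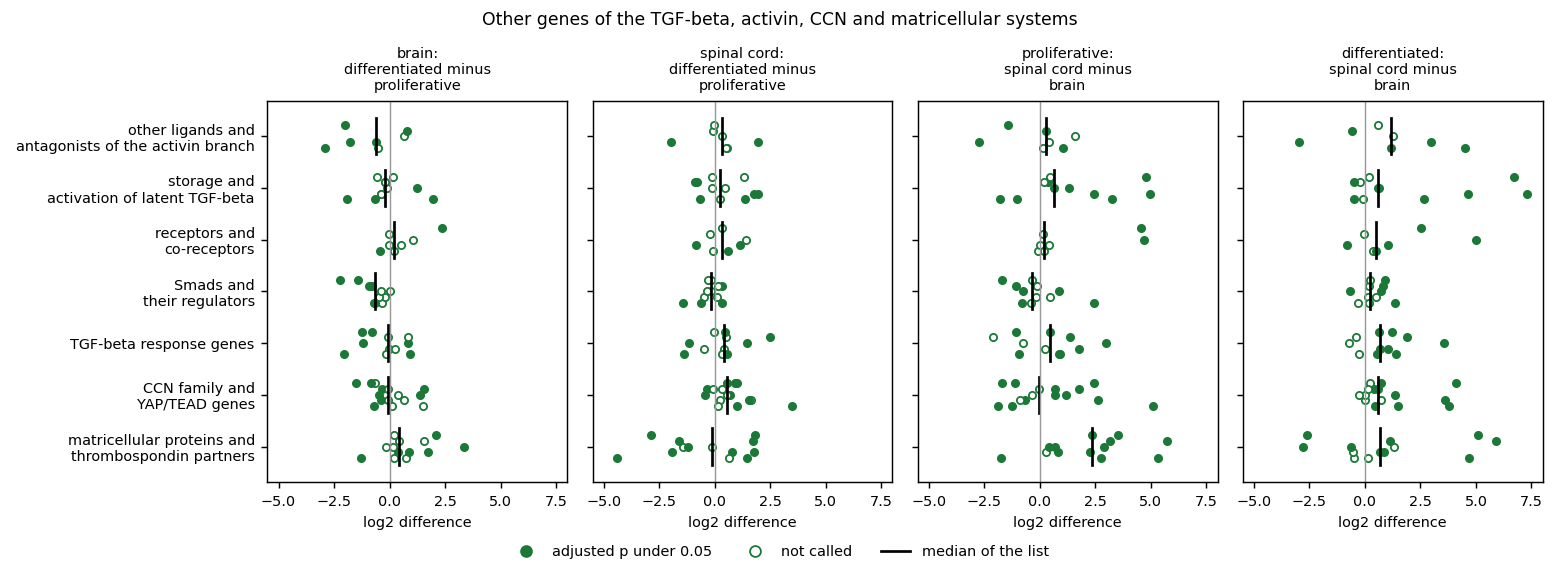
Log2 differences of 75 tested genes in 7 lists (rows) for 4 contrasts (panels), filled where the adjusted p was under 0.05, with the median of each list as a black bar. In the panel of differentiated spinal cord minus brain 40 genes are called to the right of 0 and 9 to the left, and in the brain differentiation panel 24 of the called genes lie left of 0.

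Of 7 tested ligands and antagonists around activin, 1 rose and 4 fell in brain differentiation, against 24.1% and 28.5% of all tested genes. In spinal cord 1 rose and 1 fell, against 20.9% and 22.6%. Between the tissues 2 were higher and 2 lower in proliferative spinal cord cultures, against 21.2% and 22.8%, which is near these shares. In differentiated ones 3 were higher and 2 lower, against 22.3% and 22.4%. Inhbb, the subunit of activin B, was 6.70-fold lower in spinal cord than in brain among proliferative cultures and at least 5.96-fold lower among differentiated ones, where Inhba was higher in spinal cord. Like Inhba it fell with differentiation, 3.40-fold in brain and at least 3.03-fold in spinal cord. Fst, the activin-binding antagonist follistatin, fell at least 2.55-fold in brain and was at least 7.89-fold higher in spinal cord than in brain among differentiated cultures (9.28 ± 0.06 against 4.76 ± 0.45, SD, n = 3 each). Among proliferative cultures it was 2.08-fold higher in spinal cord, a call that its other probe set did not share (log2 0.98, adjusted p = 0.221) and that was lost without spinal cord proliferative replicate 2 (adjusted p = 0.0791). Fstl1, a secreted follistatin-like protein, rose 3.86-fold in spinal cord cultures to 14.25 ± 0.15, and was 7.96-fold higher than in differentiated brain cultures. Gdf15, a stress-induced relative of TGF-beta, fell 4.03-fold in brain and was 2.65-fold lower in spinal cord than in brain among proliferative cultures. Responses differed between the tissues for Fstl1 (2.57 ± 0.27, log2, SE) and Gdf15 (1.99 ± 0.43). They differed for Fst as well, which was dim in differentiated brain cultures, by 1.92 ± 0.37 with values raised to the 40th percentile (adjusted p = 0.000867).

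Genes listed for storage and activation of latent TGF-beta were mostly higher in spinal cord, 7 of 11 among proliferative and 6 of 11 among differentiated cultures, with 2 lower in each. Over all tested genes 21.2% and 22.3% were higher, and 22.8% and 22.4% lower. The list also holds Tgfb1i1, named as a transcript induced by TGF-beta 1 and not for this function. It read 9.58, 9.2 and 9.34 in proliferative spinal cord cultures, against 10.41, 10.73 and 10.05 in proliferative brain cultures. Ltbp2, a latent TGF-beta binding protein of elastic fibres, was at least 25.5-fold higher in differentiated spinal cord than in differentiated brain cultures and at least 7.59-fold higher in proliferative ones (at least 12.5-fold without proliferative spinal cord replicate 1). Its rise of 3.83-fold with spinal cord differentiation was not called without proliferative spinal cord replicate 1 (log2 1.22, adjusted p = 0.0535). Fbn1, the microfibril protein fibrillin 1 that anchors latent complexes, rose 3.41-fold in spinal cord and stood 24.8-fold above brain among differentiated cultures. Lrrc32, the cell surface docking protein GARP, was at least 3.92-fold higher in differentiated and at least 1.78-fold higher in proliferative spinal cord cultures. Emilin1, a matrix protein that limits TGF-beta maturation, rose in both tissues, 3.92-fold in brain and 2.56-fold in spinal cord, and was 9.57-fold higher in spinal cord than in brain among proliferative cultures. Ltbp1 fell 3.81-fold in brain differentiation while Ltbp3 rose 2.33-fold. Spinal cord minus brain, the responses differed by 2.17 ± 0.27 for Fbn1 and 1.29 ± 0.26 for Ltbp1 (log2, SE). For Ltbp2, dim in both brain groups, the fitted difference was called (adjusted p = 0.0319), and it was 1.75 ± 0.61 with values raised to the 40th percentile (adjusted p = 0.0322). The fitted difference was not called without the mean-variance trend (adjusted p = 0.0584), without any 1 of the differentiated spinal cord arrays, or without spinal cord proliferative replicate 1, brain proliferative replicate 2 or brain differentiated replicate 1 or 3 (log2 1.62 to 2.36, adjusted p = 0.0524 to 0.079).

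Of 7 tested receptors 4 were higher and 1 lower in spinal cord than in brain among differentiated cultures, against 22.3% and 22.4% of all tested genes. Among proliferative ones 2 were higher and 0 lower by limma, with the same counts at an unadjusted p under 0.05. The shares of all tested genes there were 21.2% and 22.8%, so the count of 2 higher is near its share. Eng, the co-receptor endoglin, was at least 2.82-fold higher in differentiated and at least 2.59-fold higher in proliferative spinal cord cultures, and was dim in both brain groups. Acvrl1, a type I receptor best known in endothelium, was at least 1.71-fold higher in differentiated ones. Among proliferative cultures Acvrl1 was called too, but without a usable fold, at 4.16, 6.55 and 6.32 in spinal cord and dim in brain. That call was lost with values raised to the 40th percentile (log2 0.32, adjusted p = 0.0895). Tgfbr3, betaglycan, which presents TGF-beta 2 to the signalling receptors, was 2.22-fold higher after spinal cord differentiation and 2.07-fold above brain among differentiated cultures, but its other probe set was called in neither (adjusted p = 0.221 and 0.0917). The call between the tissues was lost without brain differentiated replicate 2 (adjusted p = 0.0562) or 3 (adjusted p = 0.0569). Tgfbr1, the type I receptor, fell 1.34-fold in brain (other probe set not called, adjusted p = 0.454), a call lost without brain proliferative replicate 3 (adjusted p = 0.0507) or brain differentiated replicate 1 (adjusted p = 0.0883). In spinal cord differentiation Acvr2a, an activin receptor, rose 1.53-fold and Acvr2b fell 1.80-fold. For Acvr2a the call was lost without spinal cord proliferative replicate 2 (adjusted p = 0.119) or differentiated replicate 3 (adjusted p = 0.127), and for Acvr2b without differentiated replicate 1 (adjusted p = 0.0536).

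Smads and their regulators fell in 6 of 11 cases in brain differentiation, and none rose by limma, nor at an unadjusted p under 0.05. Over all tested genes 28.5% fell and 24.1% rose there. Tgif1, a repressor of Smad targets, fell 4.70-fold, Smad3 2.71-fold and Smad2 1.92-fold. In spinal cord differentiation 2 rose and 2 fell, near the shares of 20.9% and 22.6% over all tested genes. Pmepa1, a TGF-beta-induced inhibitor of Smad signalling, fell 2.70-fold there (10.28 ± 0.23 in differentiated and 11.71 ± 0.90 in proliferative cultures), Zfyve9, which brings Smads to the receptor, fell 1.54-fold (other probe set not called, adjusted p = 0.922), and Smad2 rose 1.24-fold. The Smad2 call was lost without spinal cord proliferative replicate 2 or 3 or differentiated replicate 1 or 2 (adjusted p = 0.0573 to 0.1). Pmepa1 was also 5.45-fold higher in spinal cord than in brain among proliferative cultures and 2.58-fold among differentiated ones. Smad3 and the ubiquitin ligase Smurf2 were 1.89-fold and 1.74-fold higher in differentiated spinal cord than in differentiated brain cultures, and Tgif1 and Smad2 were 3.26-fold and 2.08-fold lower in proliferative spinal cord than in proliferative brain cultures. Between the tissues the responses of Tgif1 (1.95 ± 0.16), Smad3 (1.26 ± 0.19) and Smad2 (1.25 ± 0.14) differed.

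Response genes of TGF-beta were higher in spinal cord than in brain in 8 of 11 cases among differentiated cultures, against 22.3% of all tested genes. None was lower by limma, against 22.4%, and 1 was lower at an unadjusted p under 0.05. Sphk1, a sphingosine kinase, was 11.9-fold higher, Fn1, fibronectin, 3.75-fold and Plod2, a collagen lysyl hydroxylase, 2.66-fold. Among proliferative cultures 6 were higher and 2 lower, against 21.2% and 22.8% of all tested genes. Sphk1 was 7.87-fold and Snai1, a repressor of epithelial genes, 3.40-fold higher there, and Klf10, an early TGF-beta-induced factor, 2.11-fold lower. In brain differentiation Bhlhe40, Klf10 and the cell cycle inhibitor Cdkn2b fell 4.18-fold, 2.39-fold and 2.27-fold. In spinal cord differentiation Sphk1 rose 2.74-fold and Bhlhe40 fell 2.58-fold. Tagln was 5.66-fold higher there (adjusted p = 0.05, just under the threshold), and had a log2 change of 0.98 without proliferative spinal cord replicate 1 (adjusted p = 0.157), against 9.97-fold without replicate 2 and 9.19-fold without replicate 3. The call was also lost with the replicate number as a block (adjusted p = 0.0689), without the filter (0.0621) or the trend (0.096), and without brain proliferative replicate 2 or 3 or any 1 of the differentiated arrays of either tissue (adjusted p = 0.0507 to 0.12). Klf10 had a difference of responses of 1.72 ± 0.18, and Timp1, an inhibitor of matrix metalloproteinases, of 0.75 ± 0.19.

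Other CCN genes and YAP/TEAD genes were higher in spinal cord than in brain in 9 of 15 cases among differentiated cultures, against 22.3% of all tested genes. None was lower by limma, against 22.4%, nor at an unadjusted p under 0.05. Ccn3 was 17.4-fold higher (11.44 ± 0.15 against 7.32 ± 0.09), Ccn4 at least 3.23-fold and Ccn5 at least 1.66-fold. Among proliferative cultures 7 were higher and 5 lower in spinal cord, against 21.2% and 22.8%, with a median log2 difference of -0.05. The 5 lower genes, named after their values were seen, were Ajuba, Wwtr1, Tead2, Tead1 and Amotl1 (1.58-fold to 3.64-fold lower). Ccn3 was 5.5-fold and Ccn4 at least 3.28-fold higher, and Ccn5, though called, was dim in both groups and lost the call with values raised to the 40th percentile (adjusted p = 0.2) and with the replicate number as a block (adjusted p = 0.0631). In spinal cord differentiation Ajuba, a LIM protein that restrains the LATS kinases, rose 11-fold by its brighter probe set and by a log2 change of 1.93 in the other (adjusted p = 0.000766), and Tead2, a DNA-binding partner of YAP, 2.03-fold. Tead3 rose 2.88-fold there by a probe set that read low on the array that stood apart (log2 0.85 without it, adjusted p = 0.0162), and its other probe set was not called (adjusted p = 0.38). In brain differentiation Wwtr1, which encodes TAZ, fell 2.84-fold, while the TEAD co-regulator Vgll4 rose 2.96-fold and Amotl2, which binds YAP, 2.57-fold. Wwtr1, with a difference of responses of 2.41 ± 0.19, rose in spinal cord, as did Ajuba (3.33 ± 0.21, and 1.91 by its other probe set) and Tead2 (1.71 ± 0.21).

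Matricellular proteins and thrombospondin partners were higher in spinal cord than in brain in 11 of 13 cases among proliferative cultures and lower in 1. The shares of all tested genes were 21.2% and 22.8%, and the median log2 difference of the list was 2.34. Postn was 53.4-fold higher, Thbs2, thrombospondin 2, 11.6-fold, and Cd36, a thrombospondin and lipid receptor also found on microglia, at least 11.4-fold. Without proliferative spinal cord replicate 1 these values were 112-fold for Postn and at least 27.1-fold for Cd36, and without replicate 2 at least 6.79-fold for Cd36. Between the differentiated cultures 6 were higher and 3 lower in spinal cord, against 22.3% and 22.4%. Postn was 59.7-fold, Thbs2 34.6-fold and Smoc2 at least 12.9-fold higher, and the 3 lower genes, named after their values were seen, were Sparcl1 (6.84-fold), Smoc1 (6.12-fold) and Tnc (1.52-fold). With differentiation 5 of 13 rose and 1 fell in brain, against 24.1% and 28.5%, and 5 rose and 5 fell in spinal cord, against 20.9% and 22.6%. In brain Sparcl1, a matrix protein of astrocytes, rose 10.1-fold, Smoc1 4.28-fold and Sparc 3.30-fold. In spinal cord Cd36 fell at least 10.3-fold, Smoc1 7.22-fold and Thbs4 3.75-fold. The Cd36 bound was 24.4-fold without proliferative spinal cord replicate 1 and 6.1-fold without replicate 2. Responses in spinal cord lay below those in brain by log2 differences of -4.95 ± 0.40 for Smoc1 and -3.44 ± 0.33 for Sparcl1. For Cd36, dim in both brain groups and in differentiated spinal cord cultures, the difference was called, but its fitted size rests on dim values, and it was -3.55 ± 0.97 with values raised to the 40th percentile (adjusted p = 0.00878).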

How the data were processed

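Total RNA was labelled as biotin cRNA with a 3' IVT kit, per the labels' protocols. The submitters' processing notes name MAS5 and affy, without versions. Each probe set's log2 signal was used as deposited; back on the linear scale every array had a mean of 500 after trimming 2% at each end, a common MAS5 scaling target.

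Of 31099 probe sets, 57 controls were left out, and 20834 with at least 3 of 12 arrays above the array's 40th percentile were tested. Single platform symbols (20826 probe sets, against 436 with several and 9780 with none) were updated by Entrez ID with RefSeq's GRCr8 table (20758 matched). One mean per group was fitted with limma 3.58.1 (lmFit, then eBayes allowing for a mean-variance trend; 8 residual df) under R 4.3.3, and the model was tested on simulated data. Figures used Python 3.11.15 with matplotlib 3.10.9. Related genes were named by rule: up to 3 per list and contrast with the largest called change and groups that do not overlap, and the 2 genes most like each member. Members and lists were chosen with earlier results of these data known. Alternatives were other scalings, a pseudocount of 64, no filter, a floor, no trend, the replicate number as a block, and leaving out each array.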

Additional observations from a re-analysis of the deposited data

Results flagged for a closer look

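The differentiation response differed between spinal cord and brain, by a test of the difference itself in the limma model, for 3 of 9 probe sets. Of these 2 were higher and 1 lower, against 18.8% and 21.7% of all tested probe sets, so the count does not stand out. For Ccn2 the difference of log2 responses, spinal cord minus brain, was 2.13 ± 0.72 SE (adjusted p = 0.0297), for Tgfbi 1.12 ± 0.33 (adjusted p = 0.0151) and for Tgfb2 probe set 1387172 it was -0.81 ± 0.18 (adjusted p = 0.00249). Tgfbi was dim in both brain groups, and the second Tgfb2 probe set was not called. For Ccn2 the value was 1.33 without proliferative spinal cord replicate 1 (adjusted p = 0.0138). Its call was lost without the mean-variance trend (adjusted p = 0.0637). It was also lost when any 1 of several other arrays, named above, was left out (adjusted p = 0.0538 to 0.0669).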

How the results depend on the processing

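Each of 45 member results (9 probe sets in 5 contrasts) was recomputed under 19 alternatives, and 28 of them kept direction and call under every one. The count of called members in the difference of responses was 3 with all arrays and 2 to 5 with 1 array left out, with 5 without SNSC replicate 1. The other counts ran from 3 to 4 in brain differentiation, 6 to 7 in spinal cord differentiation, 5 to 7 between proliferative and 7 to 8 between differentiated cultures when 1 array was left out. With the replicate block they were 3, 6, 7, 7 and 3, and the block changed no member's call. Arrays that share a replicate number deviated from their group means with correlations of -0.12 to 0.05, none over 0.1. Arrays of different groups and numbers gave -0.11 to 0.15. With 3 arrays in a group these values cannot tell whether a number stands for a shared culture, animal or batch. Centring each array on its median moved the median log2 change of all probe sets to -0.15 in brain differentiation, -0.22 between proliferative cultures and 0.19 for the difference of responses. The share of calls that were higher then went to 38.2%, 31.7% and 61.3% from 50.6%, 51.2% and 46.4%. No member's call depended on centring. All 13 reversed member values were of contrasts not called in either fit. For Tgfb1 the brain change was 0.19 and the difference of responses -0.4 with values raised to the 40th percentile. With 1 array left out that difference ran from -0.1 (without BNSC replicate 3) to 1.56, and the spinal cord change from -0.37 to 0.07, with 0.07 without SNSC replicate 2 and 0.02 without SNSCfenhua replicate 1. For the second Tgfb2 probe set the difference of responses ran from -0.1 to 0.33, with -0.1 without BNSC replicate 1 or SNSC replicate 1 and 0.00 without SNSCfenhua replicate 2. For Tgfb3 the spinal cord change ran from -0.14 to 0.25, with -0.06 without SNSC replicate 2 or SNSCfenhua replicate 2 and -0.14 without SNSCfenhua replicate 1. For Ccn1 the difference between proliferative cultures ran from -1.08 to 0.21, with 0.21 without SNSC replicate 1 and 0.02 with values raised to the 40th percentile. Among 99 results of related genes, Eng alone reversed, to 0.12 in the difference of responses with values raised to the 40th percentile. That difference was called in the main fit, but not with the pseudocount of 64 either (log2 -0.28, adjusted p = 0.327). Of 1881 values of related genes under the alternatives, 46 lost their call, in 11 genes. The causes were not tested. Dim signals limit Tgfb1, Tgfbi in brain and Ccn1.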
